A study of Mus musculus with 8 samples.

Results

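The genes described here are 9 core regulators of histone acetylation, chosen by name from the 50902 genes of the deposited table: the writers Ep300, Crebbp, Kat2a and Kat5, the readers Brd2 and Brd3, and the erasers Hdac1, Hdac2 and Hdac3. The choice went by function and not by a measured threshold, though it was made with earlier results of these data known. Acetyltransferases (writers) place acetyl groups on lysines of the histone tails, bromodomain proteins (readers) bind the acetylated lysines and recruit the transcription machinery, and deacetylases (erasers) take the acetyl groups off. In embryonic stem cells (ESCs), acetylated histones mark active promoters and enhancers, and the deacetylases work inside multi-subunit corepressor complexes. The transcripts were measured by RNA-seq of polyA-enriched RNA from E14 mouse ESCs, a widely used embryonic stem cell line, kept in N2B27 medium with LIF and the 2 inhibitors known as 2i.

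The samples were 4 libraries of ESC + F/H-BAZ2Ar WT and 4 of ESC + F/H-BAZ2Ar ΔTAM. Each line carried a FLAG- and HA-tagged BAZ2A transgene, made resistant to the siRNA and integrated with the PiggyBac transposase, and both lines were transfected with siRNA-Baz2a and harvested 3 days later. BAZ2A is a chromatin remodelling subunit, and the ΔTAM transgene lacks its RNA-binding TAM domain, so the comparison asked how transcript levels differ when the BAZ2A that remains cannot bind RNA through TAM. Per the methods of the study, lines were grown from single cells and picked on a western blot, so that each may be 1 clone, and a difference between the transgenes and one between separately derived lines cannot be told apart. Nothing in the labels says that the 4 libraries of a line came from separate cultures, and p-values then measure only the spread between these libraries, which may be technical.

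The libraries held 6560881 to 8662855 reads on genes. Baz2a itself, counted over endogenous and transgene transcripts together, lay between 9.95 and 11.2 RPKM (reads per kilobase per 1000000 mapped reads) in the WT line and between 17.0 and 18.9 RPKM in the ΔTAM line, 1.74-fold higher (limma, adjusted p = 3.39e-05). This is a difference of RNA, and the paper reports similar BAZ2A protein in both lines by western blot. All 7 markers of ground-state pluripotent cells were expressed. Their summed level ran from 84.7 to 87.3 RPKM in the WT line and from 72.5 to 78.2 RPKM in the ΔTAM line. Sox2, Klf4 and Esrrb were lower and not overlapping, while Pou5f1, Nanog, Zfp42 and Tfcp2l1 overlapped between the lines. Sox2 alone lay between 26.9 and 27.6 RPKM in the WT line and between 19.4 and 21.1 RPKM in the ΔTAM line. Of 4 primed epiblast markers 1 was above 0.1 RPKM (Dnmt3b), and the summed level was 0.290 to 0.331 against 0.415 to 0.466 RPKM, with Dnmt3b alone higher, Otx2 lower at 11 reads or fewer, Pou3f1 overlapping and Fgf5 at 0 reads throughout. Of 3 neural progenitor markers 1 was above 0.1 RPKM (Nes), at a summed 0.497 to 0.624 against 0.257 to 0.300 RPKM. Nes and Sox1 were lower and not overlapping, and Pax6 overlapped. The summed markers of mesoderm, trophectoderm, primitive endoderm and fibroblasts overlapped between the lines. Of their single markers, T was lower without overlap, Krt8 lower at 37 reads or fewer, and Gata4 higher at 43 reads or fewer. The part of these shifts, and of the Baz2a difference, in the results for the acetylation genes was not tested.

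The deposited RPKM divide reads by the whole span of a gene, introns included, so that a long gene such as Crebbp, which spans 133 kb, is listed at a low value. Levels of different genes were therefore compared as reads per kilobase of merged exon per 1000000 reads on genes, and differences between the lines on log2(RPKM + 0.1). The promoters are shown first, because 4 of the members whose libraries did not overlap between the lines have a RefSeq entry. RefSeq promoter windows (GRCm38.p6) were matched for 7 of the 9 members, all but Hdac1 and Hdac3. The 250 bases upstream of the RefSeq start are printed 5′ to 3′ on the strand of the gene for Ep300 (chr15:81585964-81586213, plus strand), Crebbp (chr16:4213405-4213654, minus strand) and Brd3 (chr2:27475399-27475648, minus strand), higher in the ΔTAM libraries, and for Hdac2 (chr10:36974294-36974543, plus strand), lower there. The RefSeq start of Hdac2 is the gene start of the deposited table, while those of Crebbp, Ep300 and Brd3 lie 593, 863 and 32264 bases inside the longer gene models of that table, so these 3 windows do not precede the outermost start. Capitals mark the GC box, GGGCGG or its reverse complement CCGCCC.
Ep300: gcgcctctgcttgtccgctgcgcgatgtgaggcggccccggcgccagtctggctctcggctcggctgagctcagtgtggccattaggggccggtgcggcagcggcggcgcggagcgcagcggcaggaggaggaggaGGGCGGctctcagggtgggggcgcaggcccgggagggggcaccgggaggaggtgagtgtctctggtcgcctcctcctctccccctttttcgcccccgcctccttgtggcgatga
Crebbp: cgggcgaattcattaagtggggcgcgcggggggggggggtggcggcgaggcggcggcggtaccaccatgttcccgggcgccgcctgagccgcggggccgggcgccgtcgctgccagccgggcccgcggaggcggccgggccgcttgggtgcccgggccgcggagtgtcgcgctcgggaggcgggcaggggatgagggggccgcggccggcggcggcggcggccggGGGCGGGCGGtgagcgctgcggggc
Brd3: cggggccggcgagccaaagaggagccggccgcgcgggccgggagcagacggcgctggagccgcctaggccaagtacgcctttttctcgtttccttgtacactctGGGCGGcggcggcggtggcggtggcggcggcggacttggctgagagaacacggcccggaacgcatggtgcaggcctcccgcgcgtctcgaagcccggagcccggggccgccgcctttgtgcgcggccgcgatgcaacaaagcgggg
Hdac2: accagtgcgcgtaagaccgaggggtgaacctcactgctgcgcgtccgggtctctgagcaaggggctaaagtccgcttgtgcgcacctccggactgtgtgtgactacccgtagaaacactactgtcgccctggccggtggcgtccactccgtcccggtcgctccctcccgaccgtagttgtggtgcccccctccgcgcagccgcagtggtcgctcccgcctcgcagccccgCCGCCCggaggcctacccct
A GC box stood in 4 of the 7 member windows, those printed, and in 32.7% of the 32851 promoter windows of the same length. The printed windows belong to genes that lay higher and to 1 that lay lower in the ΔTAM libraries. The Crebbp window held 44 CpG dinucleotides and 84.0% G or C, the Brd3 window 37 and 73.2%, the Hdac2 window 27 and 68.8%, and the Ep300 window 25 and 73.2%, against a median of 6 CpG and 52.4% over all windows. Kat2a, with 11 CpG and 48.8% G or C, was the member window poorest in both. The ETS letters CCGGAA (either strand) were found in the windows of Brd2 and Brd3 and in 12.0% of all windows, and TATAAA (either strand) in none of the 7 and in 12.4% of all. These matches describe the letters of the windows and not binding.

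Among the members, Hdac1 differed most between the lines and rose 1.25-fold in ESC + F/H-BAZ2Ar ΔTAM, while its paralog Hdac2 fell to 0.925 of its WT level. The writer Ep300 and the reader Brd3 also rose, each 1.15-fold. Crebbp was 1.21-fold higher without passing the test on RPKM. Of 8 members tested with limma on log2(RPKM + 0.1), 3 were called higher at an adjusted p under 0.05, where 19.9% of all 9000 genes tested were called higher, and 1 was called lower, where 15.9% of all were. With both directions together 4 of the 8 were called, beside 35.8% of all genes tested. These are bulk libraries, in which fewer cells with a transcript and less of it per cell cannot be told apart. The median log2 fold change of the tested members was 0.060, beside 0.01 over all genes tested. In the ΔTAM libraries, 4 of the 8 tested members (Ep300, Brd3, Hdac1 and Hdac2) did not overlap with the WT libraries, and neither did 37.2% of all genes tested.

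The differences were small. None of the 8 tested members reached an absolute log2 fold change of 0.58 (1.49-fold) with an unadjusted p under 0.05, a pair of thresholds that 3.79% of all genes tested passed with limma. At an unadjusted p under 0.05 alone, 6 of the 8 passed, beside 45.9% of all genes tested. On the reads recovered from the RPKM steps, where all 9 members could be tested with limma-voom, 5 were called higher, beside 21.9% of all 12657 genes, and 1 lower, beside 21.9% likewise. None of the 9 reached 0.58 there. Quantile normalization instead of the deposited scaling gave 3 members higher and 3 lower in place of 3 and 1, where it called 17.5% of all genes higher and 19.1% lower. The number of members called fell from 4 to 1 without ΔTAM library 4 and to 2 without WT library 3 or without ΔTAM library 1 or 3. In these fits 29.2%, 30.4%, 34.0% and 29.6% of all genes tested were called, in that order.

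**Figure D1:**
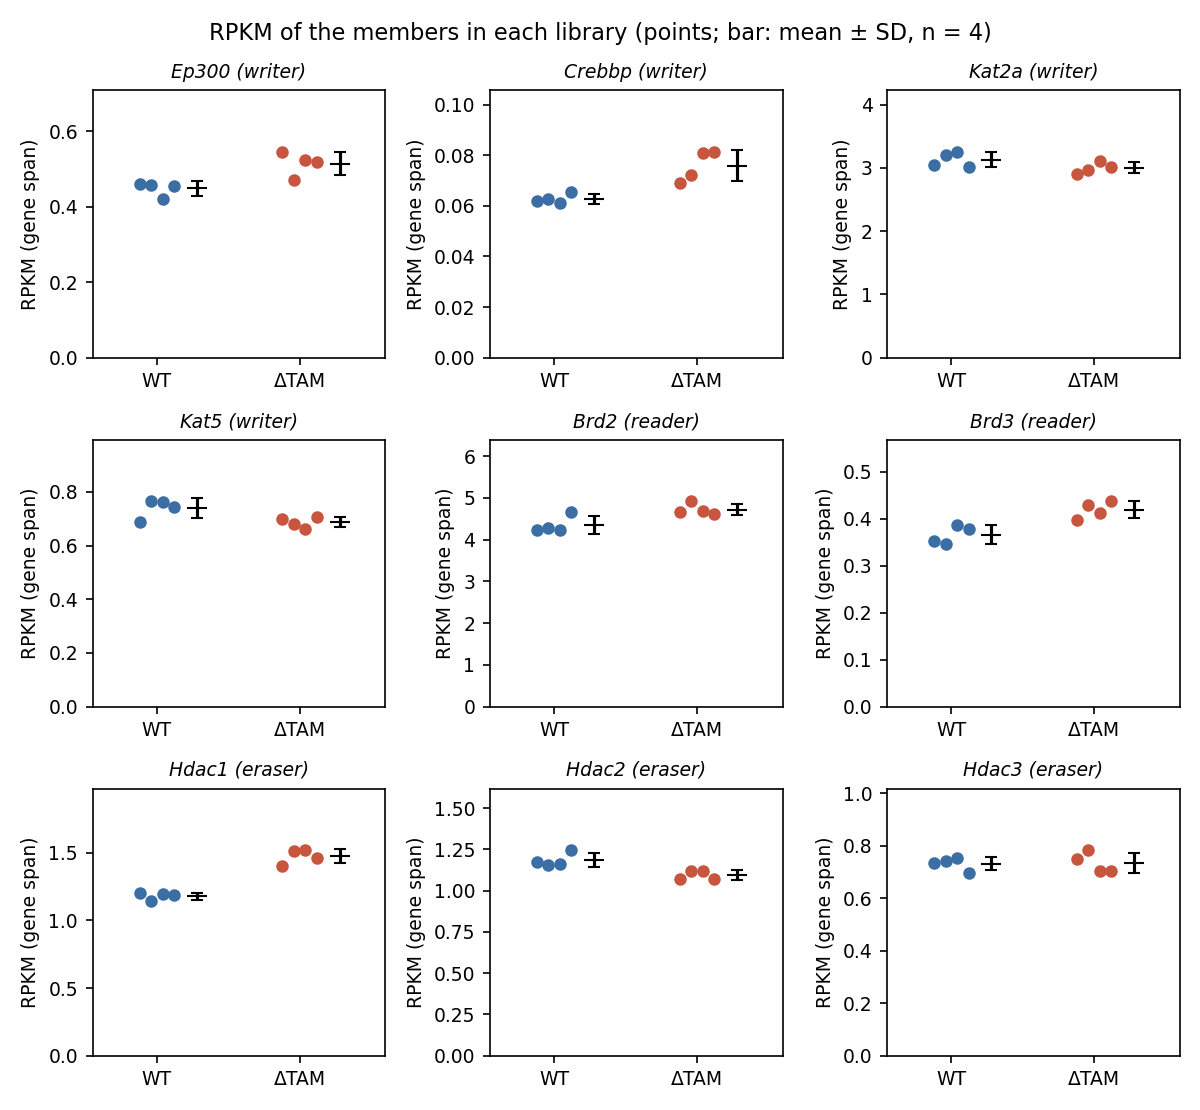
RPKM over the gene span (vertical axes, each from 0) of the 9 members in the 4 WT and the 4 ΔTAM libraries; points are libraries and the bar is the mean ± SD (n = 4). All 4 ΔTAM points lie above all WT points for Ep300, Crebbp, Brd3 and Hdac1 and below them for Hdac2.

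EP300 and CREBBP are paralogous acetyltransferases that act as coactivators at enhancers and promoters. Ep300 (chr15:81585351-81652077) stood at 0.462, 0.459, 0.420 and 0.455 RPKM in WT libraries 1 to 4 and at 0.545, 0.471, 0.524 and 0.519 RPKM in ΔTAM libraries 1 to 4. The lines did not overlap, although the lowest ΔTAM library came close to the highest WT library. Ep300 rose by 0.16 on the log2 scale (SE 0.044, 95% confidence interval 0.059 to 0.27, limma adjusted p = 0.0244), on 1365 to 1578 reads in the WT libraries and 1377 to 2011 in the ΔTAM libraries. The call was lost without WT library 3 (limma adjusted p = 0.0580) and without ΔTAM library 1, 3 or 4 (limma adjusted p = 0.0540, 0.0621 and 0.0596), and with no filter on low values (0.0503).

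Crebbp (chr16:4081328-4213997) stood at 0.0619, 0.0626, 0.0613 and 0.0656 RPKM in the WT libraries and at 0.0690, 0.0723, 0.0810 and 0.0812 RPKM in the ΔTAM libraries. Every ΔTAM library lay above every WT library, and ΔTAM libraries 3 and 4 lay above the other two. Its mean was under the 0.1 RPKM filter, so the RPKM test was run with no filter and gave a log2 difference of 0.11 (SE 0.036, 95% confidence interval 0.025 to 0.20, limma adjusted p = 0.0923). The gene still held 396 to 449 reads in the WT libraries and 414 to 626 in the ΔTAM libraries. On those reads limma-voom called it, at a log2 fold change of 0.28 (95% confidence interval 0.15 to 0.40, adjusted p = 7.65e-04), a value that the pseudocount of 0.1 RPKM does not shrink.

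KAT2A (also called GCN5) is the catalytic subunit of the SAGA and ATAC coactivator complexes, and KAT5 (TIP60) that of a complex that acetylates histones H2A and H4. Kat2a (chr11:100704746-100712465) stood at 3.04, 3.21, 3.25 and 3.01 RPKM in the WT libraries and at 2.91, 2.97, 3.11 and 3.01 RPKM in the ΔTAM libraries. The ranges overlapped, and 3 ΔTAM libraries lay under the lowest WT library by little. The log2 difference was -0.058 (95% confidence interval -0.14 to 0.02, limma adjusted p = 0.230), so a change of the size seen for Hdac1 lay outside the interval.

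Kat5 (chr19:5603017-5610094) was the member with the fewest reads, 211 to 290 per library. It stood at 0.688, 0.766, 0.763 and 0.742 RPKM in the WT libraries and at 0.700, 0.681, 0.663 and 0.706 RPKM in the ΔTAM libraries. WT library 1 lay among the ΔTAM libraries and the other WT libraries above them all. The log2 difference was -0.092 (95% confidence interval -0.18 to -0.0057, limma adjusted p = 0.0913), and without WT library 1 the gene was called lower, at -0.12 (limma adjusted p = 0.0244). Of its exon bases, 12.1% are shared with Rnaseh2c on the opposite strand, and whether the counting used the strand is not given in the sources used here, so part of its reads is uncertain.

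BRD2 and BRD3 belong to the BET family, whose paired bromodomains bind acetylated histone tails and recruit transcription elongation factors. Brd2 (chr17:34112023-34122634) stood at 4.23, 4.27, 4.24 and 4.67 RPKM in the WT libraries and at 4.66, 4.92, 4.69 and 4.61 RPKM in the ΔTAM libraries. WT library 4 stood apart from the other WT libraries and lay within the ΔTAM range. The log2 difference of 0.12 (95% confidence interval 0.026 to 0.21) did not pass the test on RPKM (limma adjusted p = 0.0507), but passed without WT library 4 (0.15, limma adjusted p = 0.00845) and on recovered reads (0.12, limma-voom adjusted p = 0.0144). Its exons share 9.78% of their bases with genes on the opposite strand, H2-DMa among them, which leaves part of its reads uncertain.

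Brd3 (chr2:27445579-27507662) stood at 0.353, 0.346, 0.387 and 0.379 RPKM in the WT libraries and at 0.398, 0.429, 0.413 and 0.438 RPKM in the ΔTAM libraries. The 2 groups did not overlap. Brd3 rose by 0.16 on the log2 scale (SE 0.040, 95% confidence interval 0.065 to 0.25, limma adjusted p = 0.0180), and by 0.20 on recovered reads (limma-voom adjusted p = 0.00100). The call on RPKM was lost without WT library 1 and without ΔTAM library 4, in both cases at a limma adjusted p of 0.0502.

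HDAC1 and HDAC2 are class I deacetylases that share the SIN3, NuRD and CoREST corepressor complexes. Hdac1 (chr4:129516104-129542713) stood at 1.20, 1.14, 1.19 and 1.19 RPKM in the WT libraries and at 1.40, 1.51, 1.52 and 1.46 RPKM in the ΔTAM libraries. The lines were far apart, with a gap between the highest WT and the lowest ΔTAM library wider than the range within either line. Hdac1 rose by 0.30 on the log2 scale (SE 0.032, 95% confidence interval 0.23 to 0.37, limma adjusted p = 3.69e-04). It was the member called in each of the 8 fits that left out a library, with limma adjusted p from 4.96e-04 to 0.00188, and limma-voom gave 0.32 (adjusted p = 2.74e-07).

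Hdac2 (chr10:36974544-37001889) stood at 1.17, 1.15, 1.16 and 1.25 RPKM in the WT libraries and at 1.07, 1.12, 1.12 and 1.07 RPKM in the ΔTAM libraries. All ΔTAM libraries lay below all WT libraries, by a narrow gap. Hdac2 fell by 0.10 on the log2 scale (SE 0.032, 95% confidence interval -0.18 to -0.029, limma adjusted p = 0.0381), and on recovered reads by 0.11 (limma-voom adjusted p = 0.0228). The call on RPKM held without ΔTAM library 2 (limma adjusted p = 0.0494) and was lost without any other single library, at limma adjusted p from 0.0506 to 0.0970, and it was lost with no filter on low values (0.0558).

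HDAC3 is the catalytic subunit of the NCoR corepressor complexes. Hdac3 stood at 0.734, 0.742, 0.754 and 0.696 RPKM in the WT libraries and at 0.749, 0.783, 0.705 and 0.702 RPKM in the ΔTAM libraries. The lines were intermixed. The log2 difference was 0.0045 (95% confidence interval -0.088 to 0.097, limma adjusted p = 0.943), an interval that does not reach the difference of either Hdac1 or Hdac2, and its sign turned with the scaling. An exact two-sided permutation test over the 8 libraries gave p = 0.0286 for each of the 5 members whose lines did not overlap, Crebbp included, which is the smallest p that 4 against 4 can give. It gave permutation p = 0.0857 for Kat5 and Brd2, 0.143 for Kat2a and 0.857 for Hdac3.

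**Figure D2:**
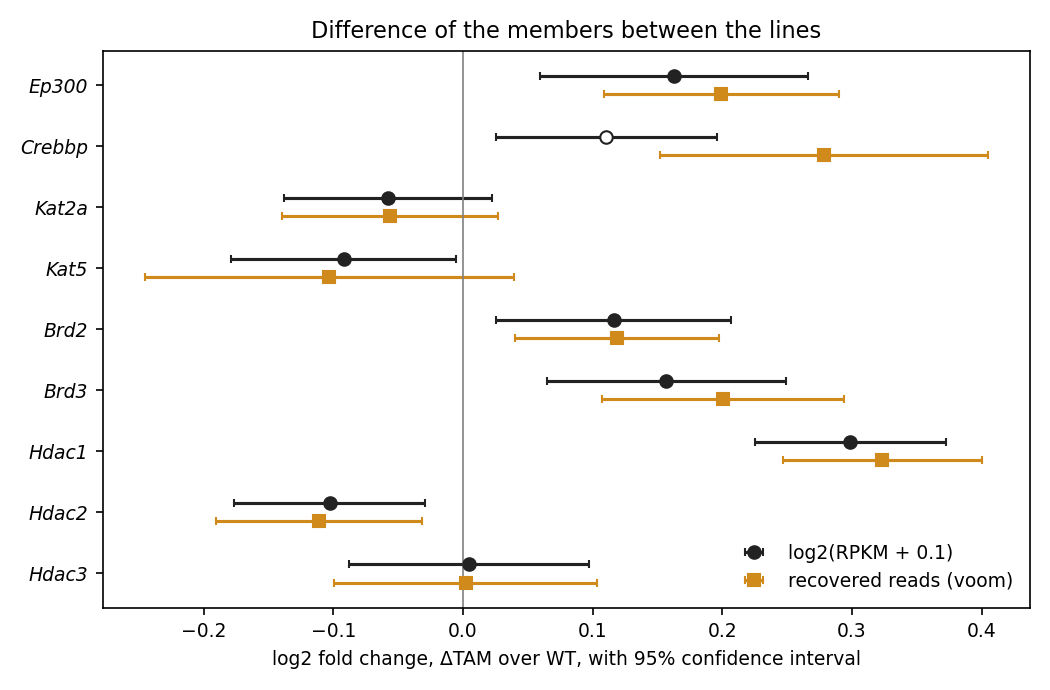
Log2 fold change of each member, ΔTAM over WT (horizontal axis), with its 95% confidence interval; circles are limma on log2(RPKM + 0.1), open for Crebbp, fitted with no filter, and squares are limma-voom on recovered reads. Hdac1 lies farthest right on log2(RPKM + 0.1), Hdac2 lies left of 0 in both fits, and the intervals of Hdac3 and Kat2a span 0.

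Per length of exon, the erasers Hdac1 and Hdac2 were the most abundant members and Crebbp the least. In the WT line the level, in reads per kilobase of exon per 1000000 reads on genes, was 61.2 ± 1.47 (SD, n = 4) for Hdac1, 48.6 ± 1.89 for Hdac2, 46.6 ± 1.66 for Kat2a and 39.6 ± 2.04 for Brd2. It was 23.2 ± 0.728 for Hdac3, 20.8 ± 1.15 for Brd3, 14.1 ± 0.617 for Ep300, 10.0 ± 0.483 for Kat5 and 4.14 ± 0.137 for Crebbp. Of the neighbours in this order, Hdac2 and Kat2a overlapped between libraries, and every other neighbouring pair was separate. In the ΔTAM line the level was 76.3 ± 2.42 for Hdac1, 44.8 ± 0.988 for Hdac2, 44.6 ± 1.15 for Kat2a and 42.9 ± 1.16 for Brd2. It was 23.8 ± 0.928 for Brd3, 23.3 ± 1.23 for Hdac3, 16.1 ± 1.04 for Ep300, 9.29 ± 0.299 for Kat5 and 4.98 ± 0.394 for Crebbp. Brd3 and Hdac3 exchanged places but overlapped there, as did Hdac2 with Kat2a and Kat2a with Brd2.

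**Figure D3:**
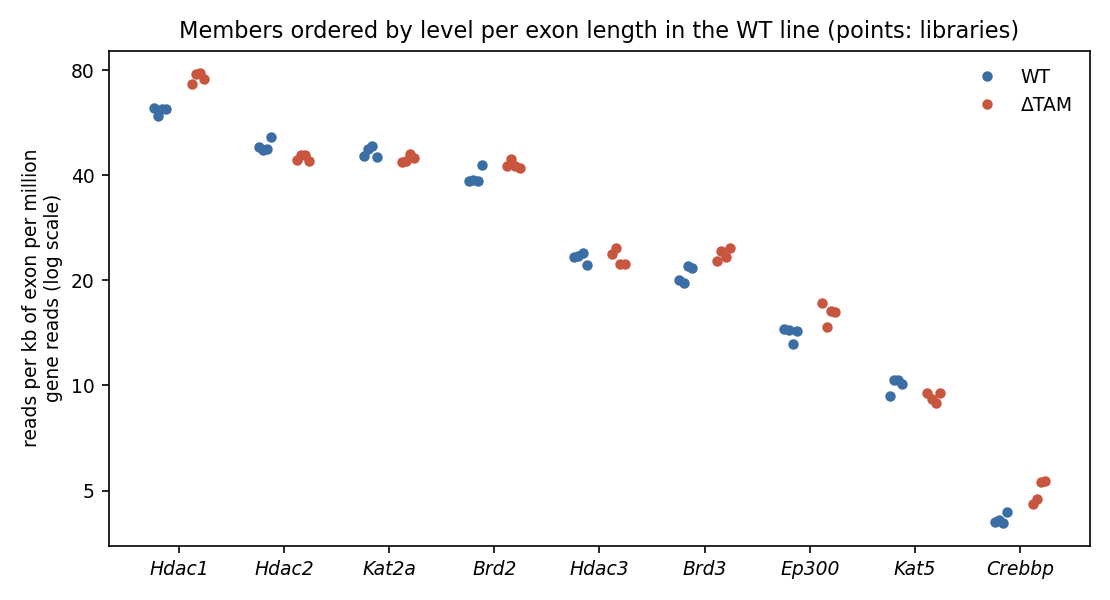
Level of each member in reads per kilobase of merged exon per 1000000 reads on genes (vertical axis, log scale), in the order of the WT line; each point is a library. Hdac1 is the highest and Crebbp the lowest member in both lines, and the Hdac1 points of the lines are clearly apart.

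Within the 3 pairs of paralogs, the balance was shifted for the deacetylases. The share of Hdac1 in the sum of Hdac1 and Hdac2, per exon length, was 56.4, 55.6, 56.5 and 54.6% in the WT libraries and 62.4, 63.1, 63.2 and 63.3% in the ΔTAM libraries. All 4 ΔTAM libraries lay above all WT libraries, with means of 55.8% ± 0.860 and 63.0% ± 0.405 (SD, n = 4). The log2 ratio of Hdac1 to Hdac2 differed by 0.43 between the lines (exact two-sided permutation p = 0.0286, the smallest possible, and 0.0857 after Benjamini-Hochberg adjustment over the 3 pairs). When only 1 of the 3 pairs reaches the smallest p, its adjusted p cannot be lower, so the adjusted test could not call it. The ratio combines the differences of the 2 genes given above and is not separate from them. The sum of both was 110 ± 2.86 in the WT line and 121 ± 3.30 in the ΔTAM line, 10.3% higher.

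The other two pairs kept overlapping shares. Ep300 made up 76.6 to 78.1% of Ep300 and Crebbp in the WT libraries and 75.3 to 79.0% in the ΔTAM libraries (log2 ratio difference -0.072, exact permutation p = 0.40). The difference was -0.14 without ΔTAM library 1 and -0.043 without ΔTAM library 4, and it turned to 0.052 on log2(RPKM + 0.1). The sum of this pair was 15.8% higher in the ΔTAM line. Brd2 made up 63.7 to 66.4% of Brd2 and Brd3 in the WT libraries and 62.8 to 65.2% in the ΔTAM libraries (log2 ratio difference -0.078, exact permutation p = 0.171, adjusted 0.257), with a sum 10.3% higher in the ΔTAM line. That difference was -0.047 without ΔTAM library 4.

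**Figure D4:**
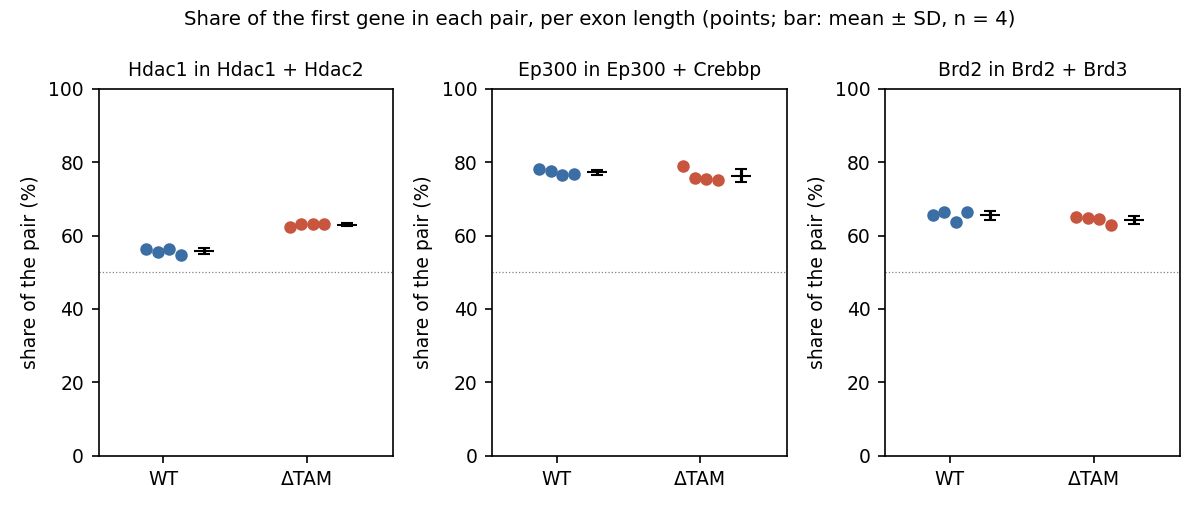
Share of the first gene in each pair of paralogs per exon length, in percent (vertical axes from 0 to 100), in each library (points), with the mean ± SD (n = 4). The share of Hdac1 lies between 54.6 and 56.5% in the WT libraries and between 62.4 and 63.3% in the ΔTAM libraries, while the shares of Ep300 and Brd2 overlap.

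The other genes of histone acetylation were taken from 5 lists with 128 genes, of which 100 passed the filter. Of these, 35 were called higher and 10 lower with limma on log2(RPKM + 0.1), beside 19.9% and 15.9% of all genes tested. Their median log2 fold change was 0.065, beside 0.01 over all genes tested. Median-ratio scaling gave 36 higher and 10 lower, whereas quantile normalization gave 27 higher and 17 lower, where 17.5% and 19.1% of all genes were called. On recovered reads, where the model and the genes tested differ as well, limma-voom called 46 higher and 23 lower of 127 genes, where 21.9% of all genes were called in each direction. The lists differed in their medians, at 0.098 over 35 acetyltransferase complex subunits and 0.087 over 33 deacetylase complex subunits, 0.027 over 15 other acetyl-lysine readers, 0.015 over 9 other deacetylases and -0.0056 over 8 other acetyltransferases. On recovered reads the median over 14 other deacetylases was -0.17, and those of the other lists were 0.14, 0.074, 0.038 and -0.0075 over 42 acetyltransferase complex subunits, 40 deacetylase complex subunits, 21 readers and 10 acetyltransferases.

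Among the other acetyltransferases, 3 of 8 rose and 1 fell (37.5% and 12.5%, beside 19.9% and 15.9% of all genes tested). Ncoa3, a nuclear receptor coactivator, rose from 0.473 ± 0.0150 to 0.587 ± 0.0116 RPKM (SD, n = 4), by 0.26 on the log2 scale (limma adjusted p = 3.44e-04). Kat2b, the paralog of Kat2a, rose by 0.14 (limma adjusted p = 0.0195) and Kat6b, of the MYST family, by 0.14 (0.0311). Hat1, which acetylates newly made histone H4, fell by 0.12 (limma adjusted p = 0.0378). The call held in all 8 fits that left out a library for Ncoa3, in 4 for Kat2b and in 2 each for Kat6b and Hat1.

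Among the acetyltransferase complex subunits, 15 of 35 rose and 1 fell (42.9% and 2.86%, beside 19.9% and 15.9% of all genes tested). Taf6l, a SAGA subunit, rose from 0.483 ± 0.0415 to 0.638 ± 0.0104 RPKM, by 0.34 on the log2 scale (limma adjusted p = 0.00156). Jade1, a scaffold of the HBO1 complex, rose by 0.28 (limma adjusted p = 3.48e-04), and Eny2, of the SAGA deubiquitinase module, by 0.19 (0.0193). Tada2a, an adaptor of the ATAC complex that holds KAT2A, was the 1 that fell, by 0.12 (limma adjusted p = 0.0151). Subunits of the KAT2A complexes were thus among both the higher and the lower genes, while Kat2a itself was not called. The Eny2 call was lost without WT library 3 (limma adjusted p = 0.0517), and those of Taf6l, Jade1 and Tada2a held without any single library.

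Among the other acetyl-lysine readers, 3 of 15 rose and 2 fell, shares near the 19.9% and 15.9% of all genes tested, so the count sets the readers apart in neither direction. Cecr2, a bromodomain subunit of a chromatin remodeller, rose by 0.13 on the log2 scale (limma adjusted p = 0.0125), Bptf, of the NURF remodeller, by 0.13 (0.0403) with overlapping libraries, and Baz1b, a paralog of Baz2a, by 0.10 (0.0376). Zmynd8, a bromodomain corepressor, fell by 0.16 (limma adjusted p = 0.00802), and Brd7, a subunit of the PBAF remodeller, by 0.13 (0.0179). The call held without any single library for Cecr2, Zmynd8 and Brd7, and in 2 and 3 of 8 such fits for Bptf and Baz1b.

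Among the other deacetylases, 1 of 9 rose and 3 fell (11.1% and 33.3%, beside 19.9% and 15.9% of all genes tested). Sirt7, a sirtuin of the nucleolus, rose from 0.427 ± 0.0742 to 0.583 ± 0.0736 RPKM, by 0.38 on the log2 scale (limma adjusted p = 0.0376), with the call held in 4 of 8 fits that left out a library. Sirt2 fell by 0.30 (limma adjusted p = 0.00239), Sirt3 by 0.19 (0.0168) and Hdac10 by 0.21 (0.0340). On recovered reads limma-voom called 1 of 14 higher and 7 lower, beside 21.9% of all genes in each direction, among them genes under the RPKM filter. Sirt2, Sirt3 and Hdac10 are not mainly histone deacetylases, since SIRT2 acts largely in the cytoplasm, SIRT3 in mitochondria and HDAC10 on polyamines. The Hdac10 call was lost on recovered reads (limma-voom adjusted p = 0.0730) and held in 1 of 8 fits that left out a library, and the exons of Sirt3 share 12.7% of their bases with genes on the opposite strand.

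Among the deacetylase complex subunits, 13 of 33 rose and 3 fell (39.4% and 9.09%, beside 19.9% and 15.9% of all genes tested). Rcor2, a CoREST subunit, rose from 1.76 ± 0.110 to 2.28 ± 0.0776 RPKM, by 0.36 on the log2 scale (limma adjusted p = 0.00100). Suds3, of the SIN3 complex, rose by 0.35 (limma adjusted p = 0.00164) and Mier3, a partner of HDAC1 and HDAC2, by 0.31 (0.00176). Rbbp7, a histone chaperone of the NuRD and SIN3 complexes, fell from 2.77 ± 0.0497 to 2.36 ± 0.0210 RPKM, by 0.22 (limma adjusted p = 2.69e-04). Mta1, of NuRD, fell by 0.17 (limma adjusted p = 0.00722). Genes of the complexes that hold HDAC1 and HDAC2 thus stood on both sides.

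The filter of 0.1 RPKM over the gene span left out 28 of the 128 genes, and the changes past 0.58 in these lists lay among them. Of these, 27 could be tested on recovered reads, and limma-voom called 5 higher and 8 lower, beside 21.9% of all genes in each direction. On recovered reads 5 of the other acetylation genes passed 0.58 with an adjusted p under 0.05 in limma-voom, all of them under the filter, beside 11.2% of all 12657 genes. These genes were picked out after their values were seen, and their reads are few. Hdac7, a class IIa deacetylase, lay between 0.0404 and 0.0506 RPKM in the WT libraries and between 0.0185 and 0.0265 RPKM in the ΔTAM libraries, and fell by 1.04 on the log2 scale (limma-voom adjusted p = 9.36e-07, 42 to 135 reads). Hdac11, the class IV deacetylase, fell by 0.96 (limma-voom adjusted p = 5.09e-04, 20 to 64 reads, with 17.9% of its exon bases shared with genes on the opposite strand), and Sirt5, a mitochondrial sirtuin, by 0.91 (0.00172, 17 to 53 reads). Chd5, a remodeller of the NuRD family, fell by 1.12 (limma-voom adjusted p = 2.22e-05, 17 to 62 reads). Brdt, the BET protein of the testis, rose by 0.88 (limma-voom adjusted p = 0.0103), on 9 to 30 reads.

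**Figure D5:**
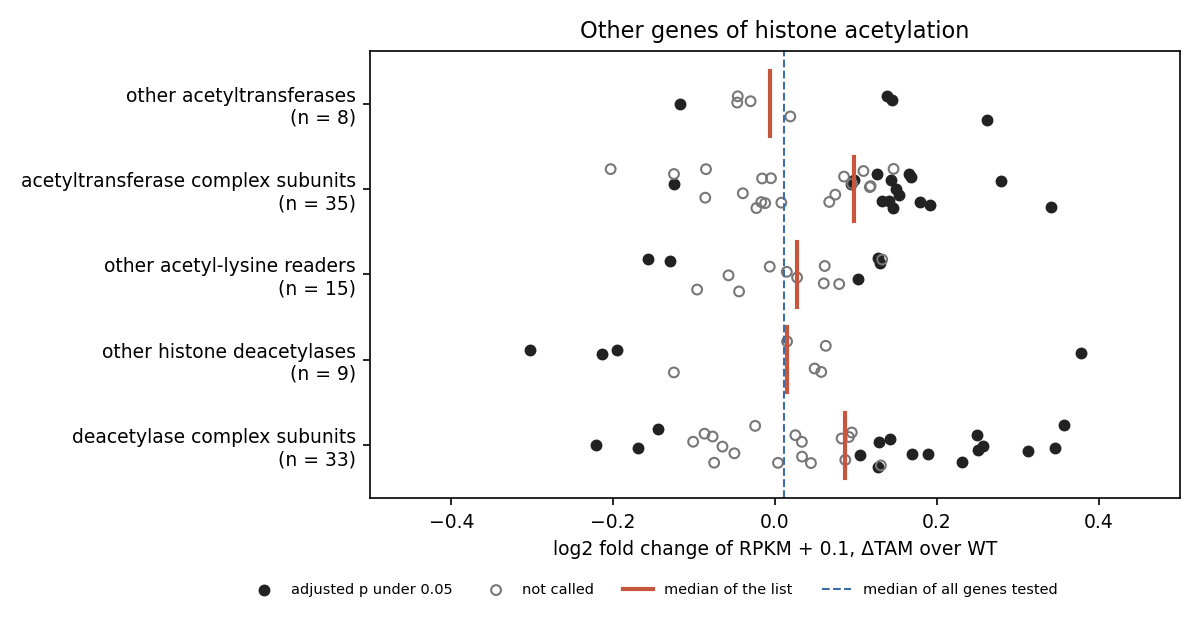
Log2 fold change of RPKM + 0.1, ΔTAM over WT (horizontal axis), of the 100 genes that passed the filter in 5 lists of other histone acetylation genes; filled points had an adjusted p under 0.05, red lines are list medians and the dashed line is the median of all genes tested (0.01). All points lie between -0.30 and 0.38, and the medians of both lists of complex subunits lie to the right of the dashed line.

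Each member was compared with the genes of the member and pathway lists that averaged 0.1 RPKM or more. The gene whose log2(RPKM + 0.1) followed a member most closely over the 8 libraries was Chd4, the NuRD remodeller, for Hdac1 (Pearson's r = 0.98), Kdm1a, the CoREST demethylase, for Brd3 (0.96) and Tbl1xr1, of the NCoR complex, for Hdac2 (0.94). It was Jade1 for Ep300 (0.91), Suds3 for Crebbp (0.91), Mier3 for Brd2 (0.90), Morf4l2 for Hdac3 (0.82), Tbl1x for Kat5 (0.81) and Brd7 for Kat2a (0.77). The libraries form 2 groups of 4 that share a line, so these values describe the difference between the lines as well as the spread within them.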

How the data were processed

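RNA-seq libraries were made with a stranded polyA kit (TruSeq Stranded mRNA) and read single-end. Per the study's methods, the authors filtered out rRNA by SortMeRNA, clipped reads by Trimmomatic (version 0.36 in the submitters' processing notes), aligned them to mm10 by STAR and deposited RPKM per gene. The release of the gene annotation and the use of strand are not given in the sources used here. The deposited RPKM stepped in whole reads per kilobase of gene span (99.5 to 99.6% of values within 0.02 of a whole read), from which reads were recovered. Of 51288 entries, 386 that repeat a symbol were set aside.

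Genes averaging 0.1 RPKM or more over the 8 libraries were tested with limma 3.58.1 (R 4.3.3, eBayes with trend) on log2(RPKM + 0.1), without a block, with Benjamini-Hochberg adjustment over all genes tested. The pseudocount shrinks the fold changes of low genes. limma-voom on recovered reads (mean of at least 10) was an alternative, since RPKM are not counts. Exon lengths came from GENCODE M21 (GRCm38), in which 155 of 166 listed genes had the coordinates of the table. Single values were tested with exact permutation tests (SciPy 1.17.1). The scripts were tested on simulated data.

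The members and lists were chosen with earlier results of these data known. Genes named are the members, Baz2a, in each list the up to 3 called higher and 3 called lower with the largest change, and the gene most correlated with each member. Hdac7, Hdac11, Sirt5, Chd5 and Brdt fall outside this rule and were named after their values were seen. 1 gene that the rule names is not reported here, though the counts include it. Other settings tried were pseudocounts of 0.01 and 1, other filters, scalings and variance models, a replicate block, and leaving out each library. The number of reads on genes limits the precision, and no interval covers more than the spread between libraries.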

Additional observations from a re-analysis of the deposited data

Results flagged for a closer look

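Values of 32 of the genes named in the report, though not of all of them, were checked for a library that stood apart. In 64 groups of 4 libraries 3 were found, where chance flags about 1 in 20 groups. Ep300 was lowest in WT library 3, at 0.420 RPKM, while the other WT libraries lay between 0.455 and 0.462. Brd2 was highest in WT library 4, at 4.67 RPKM, while the others lay between 4.23 and 4.27. Rbbp7 was highest in WT library 1, at 2.84 RPKM, while the others lay between 2.73 and 2.75. In each case the gap to the nearest library, divided by the range of the group, was above the critical value of Dixon's test for 4 values at the 95% level.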

How the results depend on the processing

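Hdac1 kept its direction and its call in all 17 alternatives. The other results depended in part on the setting, and the cause was not tested except where fewer genes or libraries entered the fit. With no filter, Ep300 was at 0.16 (limma adjusted p = 0.0503), Hdac2 at -0.10 (0.0558), and 2 of 9 members were called, beside 14.8% of all genes. With quantile normalization Kat2a (-0.093, limma adjusted p = 0.0322) and Kat5 (-0.11, 0.0476) were called lower, and Hdac3 turned to -0.014 (0.786). On recovered reads Crebbp (0.28) and Brd2 (0.12) were called, with 69 of 127 other acetylation genes (54.3%) and 5551 of all 12657 genes (43.9%). A filter of at least 1 RPKM called Brd2 (0.12, limma adjusted p = 0.0414). It called 11 of 17 other acetylation genes (64.7%) and 989 of all 2148 genes (46.0%), counts that are low since fewer genes were tested. Without the variance trend and with no filter, a setting chosen after seeing the data, Crebbp was called (0.11, limma adjusted p = 0.0305). On log2(RPKM + 0.1), where Crebbp lies under the pseudocount in every library, the log2 ratio of Ep300 to Crebbp turned to 0.052 (exact permutation p = 0.429).

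Leaving out 1 library at a time, the log2 difference ran from 0.14 to 0.20 for Ep300, from -0.12 to -0.077 for Kat5, from 0.096 to 0.15 for Brd2, from 0.14 to 0.18 for Brd3, from -0.11 to -0.080 for Hdac2 and from -0.023 to 0.023 for Hdac3. The log2 ratio difference ran from 0.41 to 0.45 for Hdac1 and Hdac2, from -0.14 to -0.043 for Ep300 and Crebbp and from -0.12 to -0.047 for Brd2 and Brd3. From 1 to 4 of 8 members and 29 to 37 of 100 other acetylation genes were called, beside 29.2 to 34.0% of all genes tested.

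Whether the replicate numbers pair the libraries of the lines is not given and was not settled here. Deviations from the line means correlated weakly between same-numbered libraries, at 0.062, 0.033, 0.024 and 0.055. Between libraries of other numbers they correlated at -0.061 to 0.028. WT libraries 1, 2 and 4 correlated best with the ΔTAM library of their own number, and WT library 3 did not. With the replicate block, 2 of 8 members were called, and Ep300 at 0.16 (limma adjusted p = 0.0564) and Hdac2 at -0.10 (0.103) were not. The block fit called 33 of 100 other acetylation genes, beside 2796 of all 9000 genes (31.1%).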
